A study of Rattus norvegicus with 12 samples.

Results

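Folic acid given to H9c2 cells that also received methylmalonic acid (MMA+FA) was set against methylmalonic acid alone (MMA). Each group holds 3 libraries, 6 of the 12 in the series, chosen by their treatment labels and by no measured value. The remaining groups are folic acid alone (FA) and untreated control cells, again 3 libraries each, and they enter below only where the folic acid difference without methylmalonic acid is placed beside it. H9c2 is a single clonal line from embryonic rat heart, given the cell type cardiomyocytes in the labels, with no genetic change stated. No dose or exposure time was found in the labels. Whether a group's libraries stem from separate cultures is not stated, so the p-values measure only the spread between these samples.

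Methylmalonic acid is a by-product of propionate breakdown that accumulates when the cobalamin-dependent mutase Mmut works poorly. Folic acid is a synthetic folate, and the vitamin's reduced forms carry one-carbon units for thymidylate, purine and methionine synthesis. H9c2 cells grow as myoblasts and can switch on contractile genes as they leave the cell cycle.

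The values are TPM, the share of each library's RNA signal that falls to a gene after division by its length, which keeps no read depth. Folds are differences of log2(TPM + 1), which understates the change of low genes. A gene is said to have risen or fallen where the Benjamini-Hochberg adjusted p of limma, over the 12263 genes averaging 1 TPM or more, was under 0.05. Of these genes 1683 (13.7%) passed in MMA+FA against MMA, 514 higher (4.19%) and 1169 lower (9.53%). Median-ratio scaling divides each library by its median ratio to a common profile, and after it 1543 (12.6%) passed, 784 higher (6.39%) and 759 lower (6.19%). The scaling moved the median difference of all genes to 0, against -0.04 as deposited. At least 2-fold higher were 5 genes (0.0408% under either scaling), and at least 2-fold lower were 14 (0.114%), or 12 after scaling (0.0979%). All 514 higher and 759 of the lower genes passed under both, and none changed direction. Most differences were small, with a median size of 0.3 among the genes that passed, and the counts leaned on single libraries: 869 genes passed without MMA replicate 1 and 868 without MMA replicate 2. The 3 MMA+FA libraries did not overlap the 3 MMA libraries for 4011 genes (32.7%), lying above them for 1318 (10.7%) and below for 2693 (22.0%). The 15 largest differences named in each direction were chosen among such genes, so for them a lack of overlap is no further support.

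Before the results, the labelled cell type was checked against its markers. Of 15 cardiomyocyte markers in the table, 11 had a mean under 1 TPM, among them Myh6, Myh7, Nppa, Nppb, Actc1, Myl2, Myl7, Mybpc3 and Ryr2. Tnnt2, Nkx2-5, Gata4 and Ttn were above it. Skeletal myoblast genes were present, with Myod1 at 31.7 ± 3.30 TPM in MMA+FA cells and 60.0 ± 1.29 TPM in MMA cells and the myoblast cadherin Cdh15 at 122 ± 5.17 TPM in MMA+FA cells and 127 ± 3.0 TPM in MMA cells (SD, n = 3 each). Pax7, the satellite cell factor, was listed at 0 in every library. Cardiomyocyte markers summed to 85.8 to 106 TPM in MMA+FA libraries and 39.4 to 42.0 TPM in MMA libraries. Tnnt2 alone held 67.5 to 84.6 TPM of the first and 19.7 to 22.7 TPM of the second. It was the 1 that passed of the 4 cardiomyocyte markers tested. Skeletal muscle markers summed to 203 to 227 TPM in MMA+FA libraries and 226 to 232 TPM in MMA libraries. Of the 9 tested, 3 rose (Acta1, Myl11 and Myog) and 1 fell (Myod1), at a median difference of 0.14. Over the 9 skeletal muscle markers tested, MMA+FA replicate 2 stood apart, with a median log2 level of -0.21 relative to the control mean, next to 0.25 and 0.28 in the other MMA+FA libraries and -0.22, -0.14 and -0.08 in the MMA libraries. Fibroblast and mesenchymal markers summed to between 10946 and 12559 TPM in MMA+FA libraries and between 10716 and 11937 TPM in MMA libraries. In MMA+FA libraries endothelial markers summed to 45.6 to 46.6 TPM, leukocyte markers to 12.2 to 14.5 TPM and adipocyte markers to 13.8 to 16.6 TPM. In MMA libraries the sums were 45.1 to 49.8 TPM, 13.7 to 14.7 TPM and 14.1 to 15 TPM. Epithelial markers summed to 26.9 to 33.9 TPM in MMA+FA libraries and 24.7 to 26.2 TPM in MMA libraries, and neuronal and glial markers to 10.4 to 11.6 TPM in MMA+FA libraries and 12.2 to 13.7 TPM in MMA libraries. Under 1 TPM on average were 10 of 12 endothelial, 11 of 13 leukocyte and 7 of 8 adipocyte markers in the table. So were 7 of 8 epithelial and 7 of 10 neuronal and glial markers, and these sums rest on few genes. What the differences in these marker sums contributed to the gene lists below was not tested. In RNA from whole cultures, fewer cells of a kind and less RNA per cell cannot be told apart.

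The 2 largest rises among named protein-coding genes were in thin filament genes of striated muscle. Tnnt2, cardiac troponin T, which ties the troponin complex to tropomyosin, had 84.6, 67.5 and 68.7 TPM in MMA+FA cells, against 22.7, 19.7 and 21.9 TPM in MMA cells. Every MMA+FA library lay far above every MMA library, a 3.44-fold ratio of means. The log2 difference was 1.73 as deposited and 1.77 after median-ratio scaling (SE 0.103, limma adjusted p = 4.58e-06 as deposited). Acta1, the alpha actin of skeletal muscle, had 10.4, 7.93 and 9.39 TPM in MMA+FA cells, against 2.54, 3.43 and 3.18 TPM in MMA cells. The groups again did not overlap, at a log2 difference of 1.34 (SE 0.11, limma adjusted p = 2.76e-05). Actin genes share long near-identical stretches, and how reads were divided among them is not stated, so the split between Acta1 and its relatives is uncertain.

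A window around an annotated start of 3 genes is printed because Tnnt2 and Acta1 hold the largest rises of named protein-coding genes and Prrx2 the largest fall. Sequences are RefSeq promoters of build GRCr8, read 5′ to 3′ on the strand of the gene: Tnnt2 on the plus strand at chr13:49818873-49819172, Acta1 on the minus strand at chr19:68784145-68784444 and Prrx2 on the plus strand at chr3:34530081-34530380. Capitals mark 3 motifs searched on both strands: the MCAT element CATTCC, known as a binding sequence of TEAD factors, the E-box CAGCTG, known to bind myogenic factors such as MyoD, and the TATA box TATAAA.
Tnnt2: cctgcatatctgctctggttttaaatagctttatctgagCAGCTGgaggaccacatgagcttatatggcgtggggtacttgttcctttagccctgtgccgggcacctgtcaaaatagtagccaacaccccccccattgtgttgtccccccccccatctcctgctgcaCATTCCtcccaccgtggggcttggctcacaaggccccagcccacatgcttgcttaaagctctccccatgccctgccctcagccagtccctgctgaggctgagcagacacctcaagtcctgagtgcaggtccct
Acta1: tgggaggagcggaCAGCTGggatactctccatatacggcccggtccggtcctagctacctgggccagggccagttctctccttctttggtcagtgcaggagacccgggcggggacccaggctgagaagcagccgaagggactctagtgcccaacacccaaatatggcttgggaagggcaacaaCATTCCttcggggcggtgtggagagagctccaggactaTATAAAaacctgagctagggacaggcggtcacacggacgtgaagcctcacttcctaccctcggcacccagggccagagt
Prrx2: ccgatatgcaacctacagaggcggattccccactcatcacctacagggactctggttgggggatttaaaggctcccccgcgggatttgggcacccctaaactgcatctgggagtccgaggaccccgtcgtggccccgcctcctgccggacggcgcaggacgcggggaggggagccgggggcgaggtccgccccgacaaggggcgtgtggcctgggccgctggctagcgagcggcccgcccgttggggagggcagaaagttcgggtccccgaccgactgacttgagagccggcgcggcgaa
In Tnnt2 the MCAT letters begin at -83 from the start site and the E-box at -211, and in Acta1 they begin at -67 and -237, with the TATA letters at -29. RefSeq lists a second Tnnt2 start, with its window at chr13:49823809-49824108, and neither this window nor that of Prrx2 holds any of the 3. MCAT letters were found in 3, the E-box in 3 and the TATA letters in 1 of 9 windows listed for Tnnt2, Acta1, Tnnc2, Tpm1, Tpm2, Lmod3 and Prrx2. Over 33469 windows of the same length in the table, 14.2% held the MCAT letters, 15.1% the E-box and 14.2% the TATA letters. A match of letters is a description and not a shown binding site.

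Of 19 thin filament genes, 13 were abundant enough to test, 6 rose and none fell, where 4.19% of all genes rose, at a median difference of 0.24 against -0.04 over all genes. Lmod3, a leiomodin that nucleates thin filaments, had 35.8, 29.4 and 41.8 TPM in MMA+FA cells, against 19.0, 16.7 and 22.6 TPM in MMA cells. The groups did not overlap (log2 0.84, SE 0.12, limma adjusted p = 0.00106). Tnnc2, the calcium-binding troponin C of fast muscle, had 63.1, 63.7 and 52.5 TPM in MMA+FA cells, against 32.4, 33.9 and 41.9 TPM in MMA cells, also apart (log2 0.72, limma adjusted p = 0.000686). The abundant tropomyosins, which lie along the actin filament, rose less. Tpm1 averaged 1312 ± 37.7 TPM in MMA+FA cells and 1083 ± 25.8 TPM in MMA cells (log2 0.28, limma adjusted p = 0.000378), and Tpm2 rose by 0.30 (limma adjusted p = 0.000336). The members Tnnt1, Tnnt3, Tnni2, Tnnc1, Tpm3, Tmod1 and Nebl did not pass, with differences between -0.40 and 0.24.

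**Figure D1:**
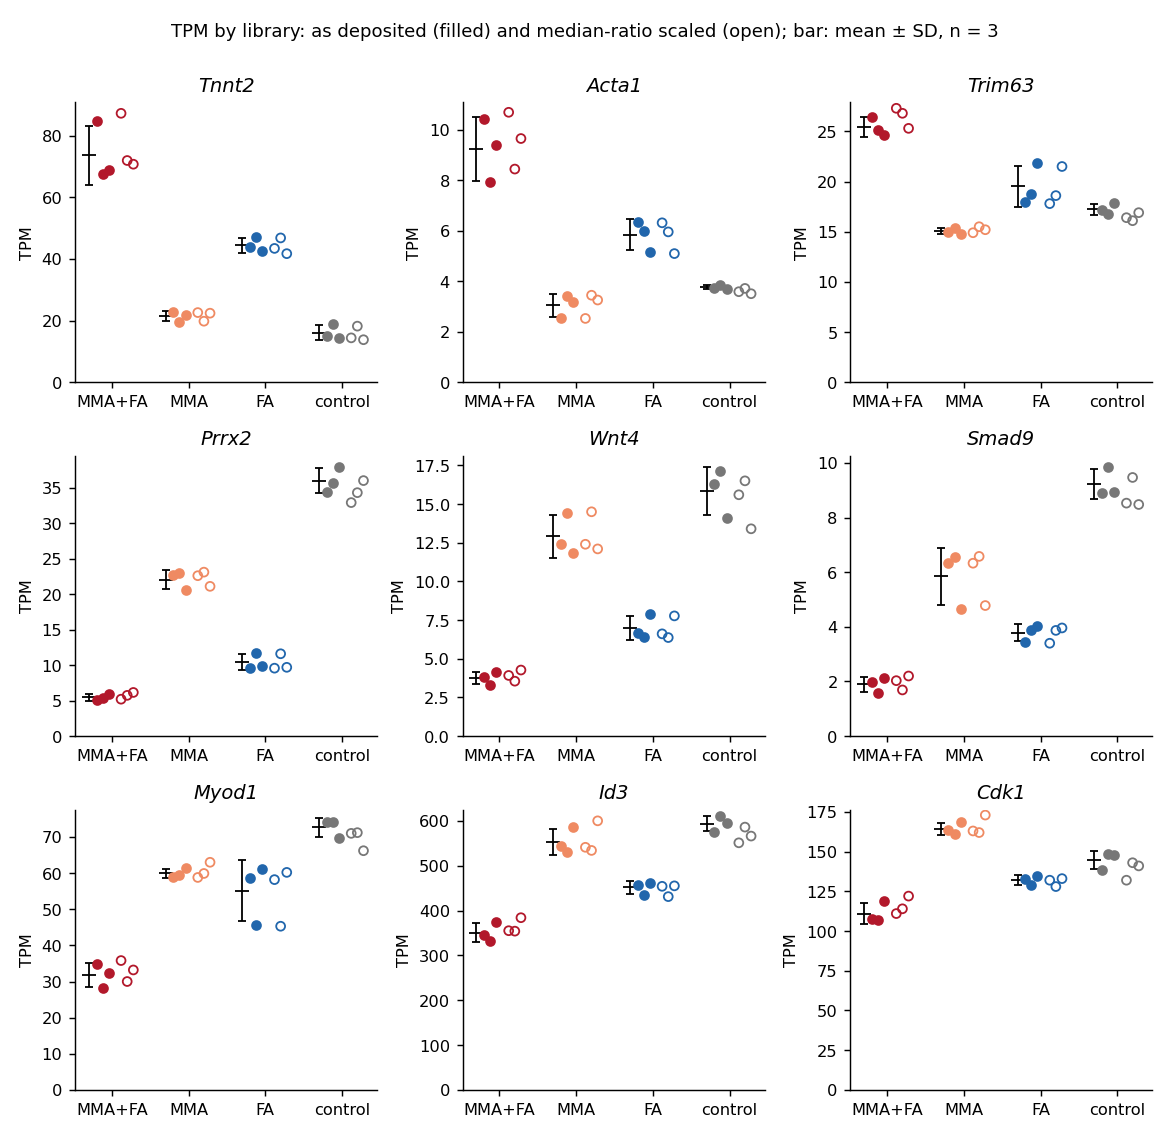
TPM of 9 genes in each library for the MMA+FA, MMA, FA and control groups, as deposited (filled points) and median-ratio scaled (open points), with bars for the mean ± SD of the deposited values (n = 3). Tnnt2, Acta1 and Trim63 are highest in the MMA+FA libraries, and Prrx2, Wnt4, Smad9, Myod1, Id3 and Cdk1 are lowest there.

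Other muscle genes rose with them, though not the whole contractile programme. Among 6 tested thick filament genes, 2 rose and 1 fell. Of all genes 4.19% rose and 9.53% fell (6.39% and 6.19% after scaling). Myl4, an atrial light chain, averaged 10.2 ± 1.30 TPM in MMA+FA cells and 6.26 ± 0.399 TPM in MMA cells (log2 0.62, limma adjusted p = 0.00170). Myl11 rose by 0.89 (limma adjusted p = 0.0241) but did not pass without MMA replicate 1 (0.94), MMA replicate 2 (0.74), MMA+FA replicate 1 (0.76) or MMA+FA replicate 2 (0.80). Mybphl, a myosin-binding protein homologue, was the 1 that fell, by 0.68, a call lost without MMA replicate 2 or 3 or MMA+FA replicate 1. The myosin heavy chains Myh3 and Myh8 stayed near or under 1 TPM in each of the 6 libraries. In the Z disc and costamere list 5 of 14 tested genes rose and 1 fell (5 and 0 after scaling), and the median was 0.26. Cavin4, a muscle caveolae protein, had 25.1, 24.9 and 30.8 TPM in MMA+FA cells, against 16.8, 18.5 and 16.8 TPM in MMA cells, with no overlap (log2 0.60, limma adjusted p = 0.000799). The other genes that rose were Pdlim5, Ldb3, Cryab and Flnc, at 0.27, 0.42, 0.25 and 0.26. Flnc did not pass without either of MMA replicates 1 and 2 or MMA+FA replicates 1 and 2, at 0.24 to 0.28.

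Smooth muscle contractile genes rose as a group of small differences. All 14 were tested, 8 rose where 4.19% of all genes did, and none fell. All 14 differences were above 0, and the median was 0.24. Vcl, vinculin, which links actin to adhesions, had 154, 151 and 153 TPM in MMA+FA cells, against 111, 108 and 111 TPM in MMA cells. The libraries of a group lay close together and the groups lay apart (log2 0.47, SE 0.03, limma adjusted p = 1.44e-05). Lmod1 (0.43), Myh11 (0.46), Myl9 (0.33) and Actg2 (0.30) rose too, and Tagln, Cnn1, Smtn, Mylk, Synm and Des did not pass, at 0.01 to 0.23.

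The transcription factors behind muscle identity moved in different directions. Myod1, which commits cells to the muscle lineage, had 34.7, 28.2 and 32.3 TPM in MMA+FA cells, against 59.0, 59.5 and 61.4 TPM in MMA cells. All 3 MMA+FA libraries were lower by a wide gap (log2 -0.90, SE 0.10, limma adjusted p = 0.000148). Myog, which drives the later steps of differentiation, averaged 18.4 ± 1.01 TPM in MMA+FA cells and 14.2 ± 0.728 TPM in MMA cells, a rise of 0.36 (limma adjusted p = 0.0137) that did not pass without MMA replicate 1 (0.32) or MMA+FA replicate 3 (0.33). Mef2c, a partner of the myogenic factors, rose by 0.37 (limma adjusted p = 0.00239) and Eya1 by 0.21, the last not without MMA replicate 2 (0.20) or MMA+FA replicate 3 (0.18). In all, 3 of 17 tested genes of that list rose and 1 fell, where 4.19% of all genes rose and 9.53% fell. The median of the list was 0.06. Without MMA+FA replicate 3 only 1 rose, and 2 rose without MMA replicate 1 or MMA replicate 2. The cardiac factors Nkx2-5 (0.01) and Gata4 (-0.07) did not pass.

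Trim63, a ubiquitin ligase that marks sarcomere proteins for breakdown, also rose. It had 26.5, 25.2 and 24.6 TPM in MMA+FA cells, against 14.9, 15.4 and 14.8 TPM in MMA cells with no overlap (log2 0.72, SE 0.0656, limma adjusted p = 5.07e-05). With Klhl40 (0.69), Camk2a (0.66) and the laminin receptor chain Itga7 (0.51) it made up the 4 of 17 tested fusion and muscle signalling genes that rose. Musk, the receptor kinase of the neuromuscular junction, was the 1 that fell, at 43.9 ± 1.2 TPM in MMA+FA cells and 62.8 ± 4.77 TPM in MMA cells (log2 -0.50). Among 15 calcium handling genes 4 rose and 1 fell (6 and 1 after scaling). Beside both lists, 4.19% of all genes rose and 9.53% fell (6.39% and 6.19% after scaling). Casq2, which stores calcium in the sarcoplasmic reticulum, rose by 0.24, and Jph2, which holds that store beside the cell membrane, by 0.36.

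Prrx2 and Wnt4 fell furthest among the named protein-coding genes, while most members of their lists did not pass. Prrx2, a homeobox factor of mesenchyme, had 5.04, 5.39 and 5.98 TPM in MMA+FA cells, against 22.7, 22.9 and 20.5 TPM in MMA cells. The ratio of means was 0.248 and every MMA+FA library lay below every MMA library (log2 -1.83, SE 0.0797, limma adjusted p = 2.09e-07). Wnt4, a secreted Wnt ligand, had 3.80, 3.33 and 4.15 TPM in MMA+FA cells, against 12.4, 14.5 and 11.8 TPM in MMA cells, again with no overlap (log2 -1.55, SE 0.10, limma adjusted p = 7.04e-06). Of 19 Wnt genes tested, Wnt4 among them, 3 fell and 1 rose, where 9.53% of all genes fell and 4.19% rose. The median of the list was -0.08, against -0.04 over all genes. The receptor Fzd4 fell by 0.67 (limma adjusted p = 7.42e-05) and the inhibitor Nkd1 by 0.45, and Nkd2 rose by 0.35. Nkd1 did not pass without MMA replicate 1 or 2 or MMA+FA replicate 1 or 2 (-0.45 to -0.41).

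Of 22 tested mesenchymal transcription factors 5 fell and none rose (4 and 1 after scaling), with a median of -0.05. Of all genes 9.53% fell and 4.19% rose (6.19% and 6.39% after scaling), with a median of -0.04. Foxf2 fell by 0.50 (limma adjusted p = 0.00281), Snai2 by 0.27, Runx2 by 0.26 and Zeb2 by 0.19, and the count was 3 without MMA replicate 1 or MMA+FA replicate 2 and 2 without MMA replicate 2. Among 17 tested collagens, Col11a1 (-0.45) and Col5a2 (-0.18) fell, none rose, and the median was -0.03. The Col5a2 call did not hold after scaling (-0.13) or without MMA replicate 1, MMA+FA replicate 2 or MMA+FA replicate 3, at -0.18 to -0.16. In TGF-beta signalling 3 genes rose and 4 fell of 17, next to 4.19% and 9.53% of all genes. The ligand Tgfb3 was higher by 0.58 and the secreted matrix protein Tgfbi lower by 0.59. The receptor Tgfbr2 rose by 0.27. Without MMA replicate 1 or MMA replicate 2 the lower count was 2.

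Bone morphogenetic protein (BMP) signalling genes fell together. BMP ligands activate receptor kinases that phosphorylate Smad1, Smad5 and Smad9, and these with Smad4 switch on the Id genes, which in turn hold back differentiation factors such as MyoD. Of 17 tested genes 10 fell and none rose, under both scalings, where 9.53% of all genes fell (6.19% after scaling). Their median was -0.23, and 8 to 10 fell when each of the 6 libraries was left out. A further 9 listed genes had a mean under 1 TPM. Smad9 had 1.97, 1.59 and 2.14 TPM in MMA+FA cells, against 6.35, 6.54 and 4.66 TPM in MMA cells (log2 -1.23, SE 0.11, limma adjusted p = 5.59e-05). Smad1 (-0.14) and Smad4 (-0.07) did not pass, so the loss within the Smads was uneven.

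The Id targets fell to different degrees. Id2 had 62.6, 67.4 and 79.8 TPM in MMA+FA cells, against 128, 134 and 114 TPM in MMA cells (log2 -0.84, limma adjusted p = 0.000276). Id3 had 345, 333 and 374 TPM in MMA+FA cells, against 543, 530 and 585 TPM in MMA cells (log2 -0.66, SE 0.05, limma adjusted p = 1.83e-05). Neither gene's groups overlapped. Id4 fell by 0.77 at a low level, and Bambi, a decoy receptor that the pathway itself induces, fell by 0.71 (limma adjusted p = 9.04e-05). Id1 (-0.23) and the inhibitory Smads Smad6 (-0.64) and Smad7 (-0.45), named after their values were seen, fell as well. No ligand or receptor of the list rose: Bmp4 stood at 0.15, Bmp1 at 0.10, Bmpr1a at -0.04 and Bmpr2 at -0.09, none past the test.

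Mitotic genes fell almost without exception. Of 41 tested genes of mitosis and G2/M, the stages from late interphase to division, 39 fell and none rose under both scalings. Of all genes 9.53% fell, and 6.19% after scaling. The median of the list was -0.51 as deposited and -0.47 after scaling, and the same count of 39 was called when any 1 of the 6 libraries was left out. Cdk1, the kinase that starts mitosis, had 107, 107 and 119 TPM in MMA+FA cells, against 163, 161 and 169 TPM in MMA cells. The groups were apart with little spread (log2 -0.56, SE 0.05, limma adjusted p = 3.48e-05). Nusap1, a spindle protein, had 51.6, 48.9 and 53.9 TPM in MMA+FA cells, against 85.0, 80.7 and 78.1 TPM in MMA cells (log2 -0.65, limma adjusted p = 4.55e-05). Prc1, which bundles microtubules between the separating chromosomes, averaged 113 ± 3.54 TPM in MMA+FA cells and 160 ± 1.62 TPM in MMA cells (log2 -0.50).

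The spindle checkpoint kinase Bub1b fell by 0.51 and the spindle protein Dlgap5 by 0.56. The only 2 members that did not pass were Bub3, at -0.07, and Foxm1, a transcription factor that drives these genes, at -0.27, both named after their values were seen. Within the list the differences were of like size, between -0.65 and -0.07. The median level of the list lay at -0.35, -0.36 and -0.23 in the MMA+FA libraries and at 0.18, 0.18 and 0.19 in the MMA libraries, on the log2 scale relative to the control mean. The MMA+FA libraries were thus below the control mean and the MMA libraries above it. On this list the FA libraries stood at -0.07, -0.13 and -0.15 and the control libraries at -0.08, 0.03 and 0.03.

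**Figure D2:**
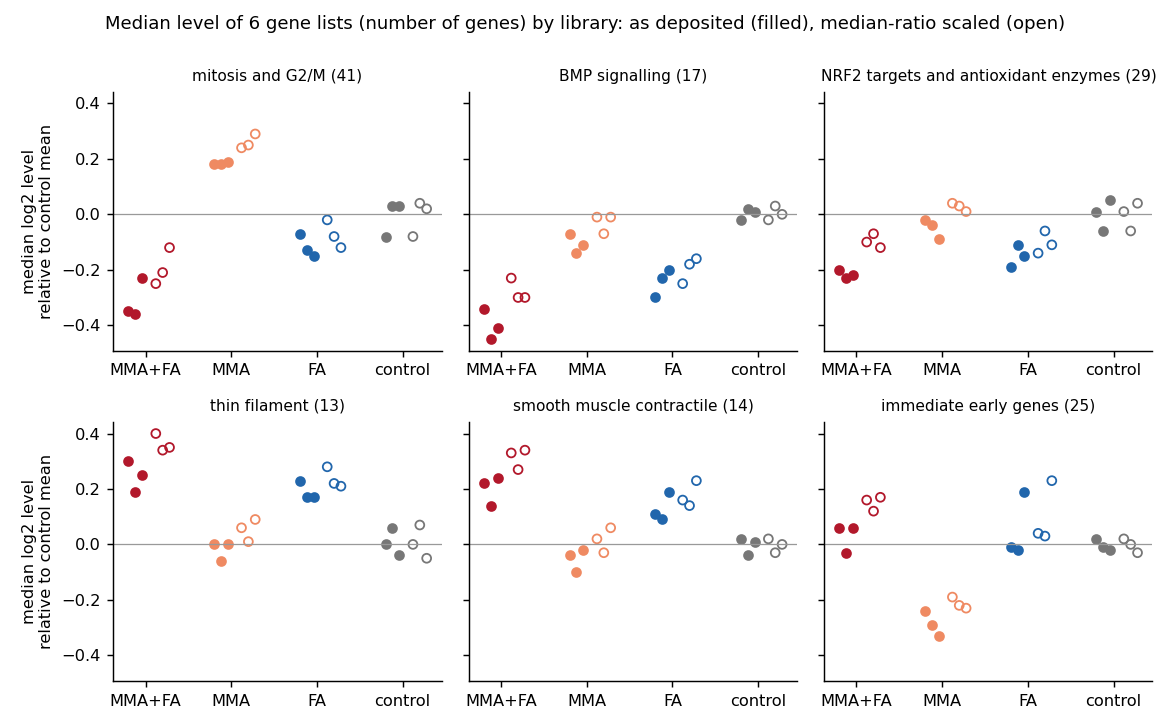
Median log2 level of 6 gene lists in each library relative to the control mean, for the MMA+FA, MMA, FA and control groups, as deposited (filled) and median-ratio scaled (open). Mitosis and G2/M genes are lowest in the 3 MMA+FA libraries and highest in the 3 MMA libraries, and thin filament genes lie higher in the MMA+FA libraries (0.19 to 0.30) than in the MMA libraries (-0.06 to 0). In the FA libraries thin filament genes stand at 0.17 to 0.23.

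DNA replication and S phase genes fell in smaller number. Of 39 tested, 12 fell and none rose (11 after scaling), at a median of -0.20, where 9.53% of all genes fell (6.19% after scaling). Relative to the control mean, the list's median log2 level was -0.05, -0.02 and 0.19 in the MMA+FA libraries. In the MMA libraries it was 0.24, 0.16 and 0.30, so on this level the groups overlapped. Rrm2, a subunit of the reductase that makes deoxynucleotides, had 76.9, 78.0 and 95.9 TPM in MMA+FA cells, against 120, 121 and 127 TPM in MMA cells (log2 -0.55, limma adjusted p = 0.000527). Its partner Rrm1 fell by 0.33 and the single-strand binding subunit Rpa2 by 0.55 (limma adjusted p = 4.31e-05). The groups of each of these genes did not overlap. Among cell cycle inhibitors and genes of the DNA damage response 3 rose and 6 fell of 27 (3 and 3 after scaling): Gadd45a fell by 0.28 and Mdm2 by 0.21, the survival genes Bcl2 and Mcl1 rose by 0.48 and 0.20, and Cdkn1a, the inhibitor p21, stood at -0.03. Without MMA+FA replicate 1, 2 or 3 the lower count was 3. Of 21 tested DNA and histone methylation enzymes 4 fell and 1 rose (3 and 1 after scaling), where 9.53% of all genes fell (6.19% after scaling). Ezh2 (-0.42), Suv39h1 (-0.39) and Nsd2 (-0.31) were among those that fell. The remaining one, Uhrf1 (-0.29), did not pass after scaling or without any of MMA replicates 1 to 3 or MMA+FA replicates 1 and 2. Dot1l was the 1 that rose, at 0.29, a call lost without any of MMA replicates 1 to 3 or MMA+FA replicates 1 and 3.

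Immediate early genes, the first transcripts to answer a stimulus, were higher in MMA+FA cells, and their calls hung on single libraries. Of 25 tested 10 rose and 2 fell, at a median of 0.17, where 4.19% of all genes rose and 9.53% fell. The higher count was 7 without MMA replicate 1, 4 without MMA replicate 2, 6 without MMA replicate 3, 4 without MMA+FA replicate 1, 7 without MMA+FA replicate 2 and 5 without MMA+FA replicate 3. Egr1 had 124, 122 and 141 TPM in MMA+FA cells, against 97.3, 98.5 and 70.6 TPM in MMA cells (log2 0.55, limma adjusted p = 0.00746). Fosb, an AP-1 subunit, had 93.5, 72.9 and 92.0 TPM in MMA+FA cells, against 68.4, 42.1 and 17.4 TPM in MMA cells. The MMA libraries of Fosb spread widely, and its difference of 1.19 (SE 0.34, limma adjusted p = 0.0349) did not pass without MMA replicate 2 (1.28) or any of the MMA+FA replicates (1.12 to 1.30). Btg2, an inhibitor of proliferation, rose by 0.48 and Ier2 by 0.47. Myc (-0.35) and Klf10 (-0.49) fell. On the list's median the MMA+FA libraries stood at 0.06, -0.03 and 0.06 relative to the control mean and the MMA libraries at -0.24, -0.29 and -0.33.

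More NRF2 targets and antioxidant enzymes fell than rose. Of 29 NRF2 targets and antioxidant enzymes 9 fell and 1 rose (9 and 2 after scaling), at a median of -0.18, where 9.53% of all genes fell. Gsta1, a glutathione transferase, had 43.3, 42.8 and 42.4 TPM in MMA+FA cells, against 75.5, 72.6 and 66.9 TPM in MMA cells (log2 -0.73, limma adjusted p = 0.000632). Nqo1, a quinone reductase, averaged 157 ± 12.7 TPM in MMA+FA cells and 212 ± 2.56 TPM in MMA cells (log2 -0.43), and Osgin1 fell by 0.62. Gpx1, the peroxide-reducing selenoenzyme, was the 1 that rose, by 0.24. In iron handling Ftl1, the ferritin light chain, fell by 0.31 and the iron exporter Slc40a1 by 0.50, and the other 14 tested genes did not pass.

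Of 14 chemokines and cytokines 5 fell, and 2 fell with 1 rising after scaling, where 9.53% of all genes fell (6.19% after scaling). Csf1, the macrophage growth factor, averaged 97.9 ± 3.89 TPM in MMA+FA cells and 140 ± 2.31 TPM in MMA cells (log2 -0.51, limma adjusted p = 8.55e-05), and Il6 fell by 0.41. Cxcl1 (-0.56) and Lif (-0.24) passed as deposited and not after scaling, and the count was 2 without MMA replicate 1, MMA replicate 2 or MMA+FA replicate 3 and 3 without MMA replicate 3. In the NF-kB and interferon list Nfkbia, the inhibitor that NF-kB induces, had 21.1, 21.8 and 20.3 TPM in MMA+FA cells, against 33.5, 32.6 and 31.1 TPM in MMA cells (log2 -0.60, limma adjusted p = 4.55e-05). In all, 3 of the 21 tested genes fell (2 after scaling) and none rose, where 9.53% of all genes fell (6.19% after scaling). Irf1 (-0.24) did not pass after scaling or without any 1 of the 6 libraries.

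Lysosome genes rose by small steps. Of 31 tested genes of lysosome and autophagy 11 rose and 1 fell (12 and 1 after scaling), at a median of 0.07. Of all genes 4.19% rose, and 6.39% after scaling. In the list 7 to 11 rose when each of the 6 libraries was left out, with 7 without MMA+FA replicate 1. Atp6v0d1, a subunit of the proton pump that acidifies the lysosome, had 158, 147 and 146 TPM in MMA+FA cells, against 118, 116 and 118 TPM in MMA cells (log2 0.35, limma adjusted p = 0.00018). Hexa, a hexosaminidase, rose by 0.24. The cathepsin Ctsl was the 1 that fell, by 0.34.

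Sterol genes rose in part. Insig1, which holds the sterol sensor in the endoplasmic reticulum, had 22.8, 24.9 and 30.2 TPM in MMA+FA cells, against 14.5, 15.4 and 17.3 TPM in MMA cells (log2 0.68, limma adjusted p = 0.000726). With Msmo1 (0.41), Lss (0.36) and Cyp51 (0.17) it was among the 5 of 35 tested genes that rose, where 4.19% of all genes did. In the list 1 gene fell (none after scaling). The higher count was 10 without MMA replicate 3 and 3 without MMA replicate 1, MMA replicate 2 or MMA+FA replicate 3.

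In the pathways of the added compounds themselves differences lay in both directions. Of 26 tested folate and methionine cycle genes 2 rose and 4 fell, where 4.19% of all genes rose and 9.53% fell. Their median was -0.08, and 11 had an unadjusted p of limma under 0.05, where 28.2% of all genes did. Mat2a, which makes S-adenosylmethionine, had 73.8, 75.2 and 78.9 TPM in MMA+FA cells, against 57.5, 56.0 and 49.7 TPM in MMA cells, with no overlap (log2 0.48, limma adjusted p = 0.00093). Shmt1, which loads one-carbon units onto folate in the cytosol, rose by 0.34 (limma adjusted p = 0.00338). Mthfd1l fell by 0.27, Mthfs by 0.38 and Mtrr, which reactivates methionine synthase, by 0.21, and without MMA replicate 1 none of the 4 passed.

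The folate carriers Slc19a1 (0.09) and Slc46a1 (-0.02) and the enzymes Mthfd1 (-0.12), Mthfd2 (-0.12), Shmt2 (-0.14) and Mtr (-0.13) did not pass. In the propionate, cobalamin and branched-chain list 3 of 33 genes fell and none rose, where 9.53% of all genes fell and 4.19% rose. After scaling 1 fell and 2 rose, where 6.19% and 6.39% of all genes did. The cobalamin transporter Abcd4 fell by 0.37 (limma adjusted p = 0.00668), while Hibadh (-0.17) and Echs1 (-0.20) passed neither after scaling nor without MMA replicate 1, and the lower count was 1 without MMA replicate 1 or 2 or MMA+FA replicate 1 or 3. Mmut had 8.92, 7.93 and 9.53 TPM in MMA+FA cells, against 9.29, 8.61 and 7.24 TPM in MMA cells. The groups overlapped (log2 0.07, SE 0.09, limma adjusted p = 0.69), and so did those of the cobalamin carrier Tcn2 (0.11).

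**Figure D3:**
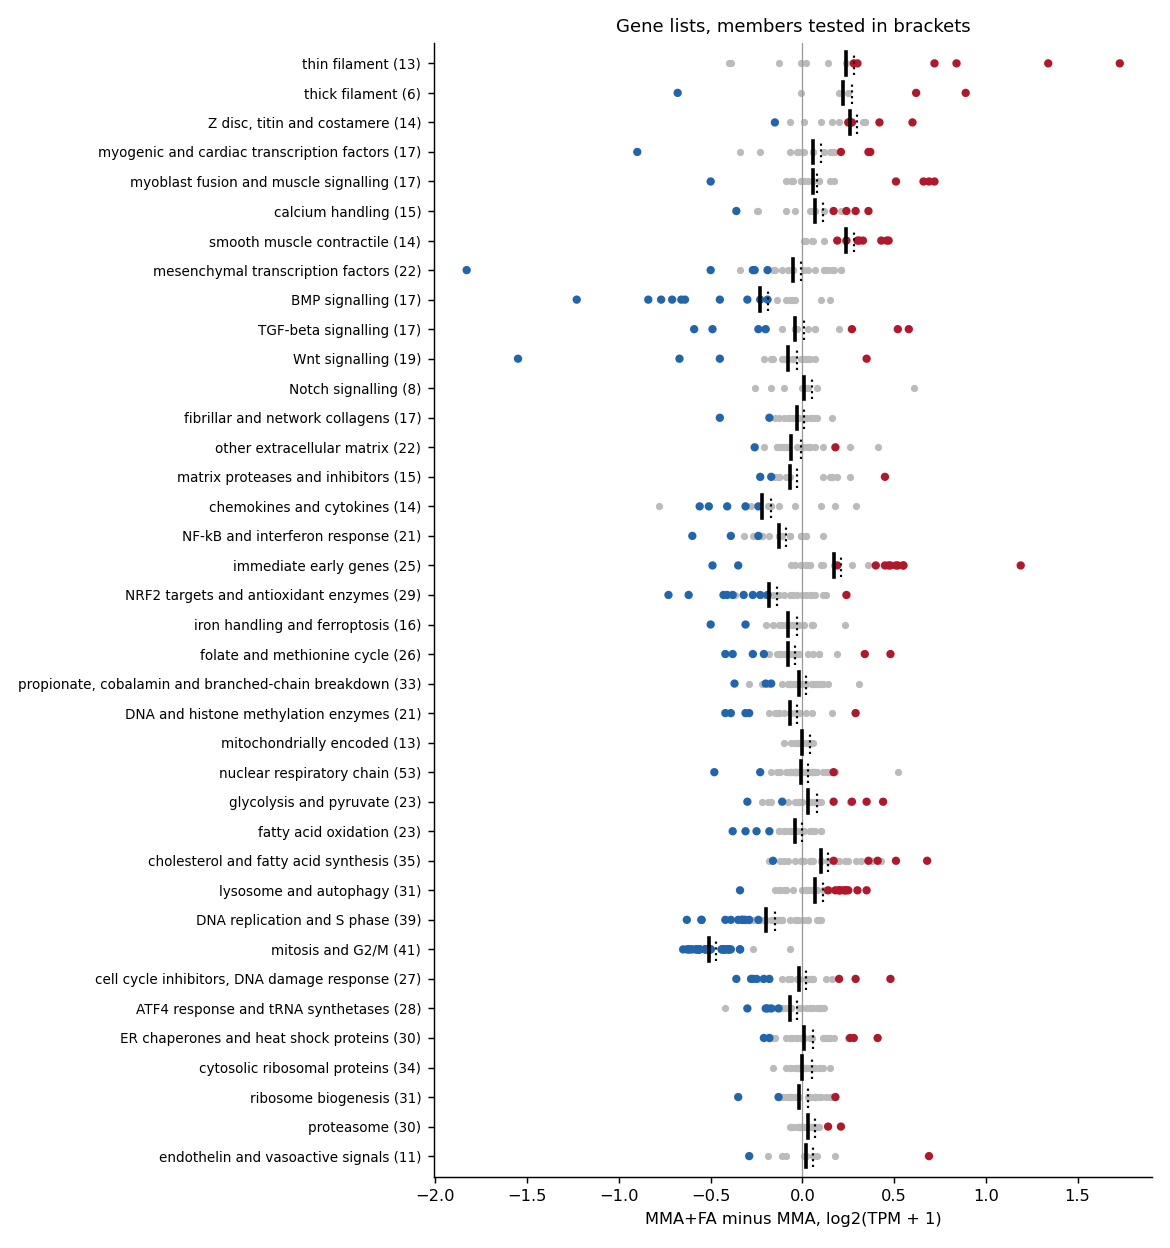
Difference MMA+FA minus MMA in log2(TPM + 1) for the tested members of 38 gene lists, with coloured points for genes that passed the test (red higher, blue lower) and grey points for the others. Solid bars mark the list median as deposited and dotted bars the median after median-ratio scaling, which lies above it. All 41 mitosis and G2/M points lie below 0 and all 14 smooth muscle contractile points above it.

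No difference was detected in mitochondrially encoded genes: none of the 13 passed in limma under either scaling, 0 had an unadjusted p under 0.05 where 28.2% of all genes did, and their differences lay between -0.10 and 0.06. They held 10.6 ± 0.503% of TPM in MMA+FA libraries and 10.8 ± 0.569% in MMA libraries (SD, n = 3 each, exact permutation p = 0.8, two-sided, where 0.1 is the smallest possible). The 100 most abundant genes held 37.8 ± 0.473% in MMA+FA libraries and 36.8 ± 0.404% in MMA libraries (exact permutation p = 0.1). Of 53 nuclear respiratory chain genes 1 rose and 2 fell (3 and 0 after scaling). Over all genes 4.19% rose and 9.53% fell (6.39% and 6.19% after scaling). In glycolysis 4 of 23 rose and 2 fell, with Ldhb higher by 0.44 and Pfkm by 0.35, and the higher count was 2 without MMA replicate 1 or 2 or MMA+FA replicate 1 or 2. Of 23 fatty acid oxidation genes 4 fell (1 after scaling), where 9.53% of all genes fell (6.19% after scaling). Cpt1a, the gate of fatty acid entry, fell by 0.38, and 2 of the list fell without MMA replicate 1 or 2 or MMA+FA replicate 1 or 3. None of 34 ribosomal protein genes passed in limma, where 1 had an unadjusted p under 0.05, and none of 8 Notch genes, where 3 did. In the ATF4 and tRNA synthetase list 5 of 28 fell (1, with 2 rising, after scaling), where 9.53% of all genes fell (6.19% after scaling). The lower count was 0 without MMA replicate 2 or MMA+FA replicate 3, 1 without MMA replicate 1 and 3 without MMA replicate 3 or MMA+FA replicate 2. Among 30 chaperones and heat shock proteins 3 rose and 2 fell (7 and 0 after scaling), with Calr, an endoplasmic reticulum chaperone, higher by 0.26 and Hspa8, a cytosolic one, by 0.41. The higher count was 1 without MMA replicate 2 and 5 without MMA replicate 3.

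Several genes not described so far were among the largest differences in each direction. Car1, a carbonic anhydrase, had 1.57, 1.78 and 1.44 TPM in MMA+FA cells, against 5.67, 6.65 and 4.81 TPM in MMA cells (log2 -1.36, limma adjusted p = 1.77e-05). Cd200, an immunoglobulin-family surface protein, had 17.1, 15.2 and 16 TPM in MMA+FA cells, against 32.1, 32.3 and 37.6 TPM in MMA cells (log2 -1.03). Samd11 (-1.22), Ifitm10 (-1.15), Adgrg1 (-1.09), the cell adhesion gene Negr1 (-0.92) and Nrn1 (-0.85) fell as well. Ednra, the type A endothelin receptor, had 11.9, 11.6 and 11.0 TPM in MMA+FA cells, against 6.67, 7.01 and 6.57 TPM in MMA cells (log2 0.69, limma adjusted p = 7.42e-05). It was the 1 that rose of 11 tested endothelin and vasoactive genes, where 1 fell (2 and 0 after scaling). Over all genes 4.19% rose and 9.53% fell (6.39% and 6.19% after scaling). Lbh rose by 0.71, the guidance ligand Slit3 by 0.71 and Gmpr, which interconverts purine nucleotides, by 0.70.

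The remaining genes among the largest differences are uncertain. Hmgn1l1 (0.74) and Ndufv3-ps1 (0.66) carry the names of copies of other genes with which they can share reads. Ndufv3-ps1 did not pass without MMA replicate 1 or 2 or MMA+FA replicate 1 or 2 (0.57 to 0.64), nor Hmgn1l1 without MMA replicate 1 (0.69). AABR07007032.1, described in the table as actin-binding LIM protein 1, rose by 0.81. Apela, a peptide ligand, fell by 0.90 but not past the test without MMA replicate 1 or 2 or MMA+FA replicate 1 or 3 (-0.86 to -0.69). The small nuclear RNA LOC120095478 and the Cajal body RNA Scarna6l were listed at 0 in all 3 MMA+FA libraries. In the MMA libraries LOC120095478 had 6.32, 72.9 and 9.47 TPM and Scarna6l 6.70, 6.35 and 7.58 TPM. Both are short RNAs without a poly(A) tail in libraries of polyadenylated RNA, the LOC120095478 call was lost without MMA replicate 2 or any MMA+FA replicate, and the Scarna6l call in every omission of 1 of the 6 libraries.

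The same folic acid difference without methylmalonic acid, FA against control, shares no library with the comparison above. There 1517 genes passed (12.4%), 450 higher (3.67%) and 1067 lower (8.70%), and 1185 after scaling (9.66%), 709 higher (5.78%) and 476 lower (3.88%). Of the 514 genes that rose in MMA+FA against MMA, 118 rose there too, 23.0% of the first list and 26.2% of the second, and 20 fell. Of the 1169 that fell, 300 fell there too, 25.7% and 28.1%, and 14 rose. After scaling the shared counts were 218 of the 784 that rose (27.8% and 30.7%) and 136 of the 759 that fell (17.9% and 28.6%), so whether more rises or more falls were shared depends on the scaling. Across all genes tested the differences correlated at Pearson 0.27 and Spearman 0.34, a description over genes, which are not independent replicates.

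Prrx2, Tnnt2 and Smad9 changed in the same direction in both settings. Prrx2 averaged 10.4 ± 1.15 TPM in FA cells and 36.0 ± 1.74 TPM in control cells, a difference of -1.70 next to -1.83 with methylmalonic acid (difference of differences -0.13, limma adjusted p = 0.588). For Tnnt2 the values were 44.5 ± 2.43 TPM in FA cells and 16.1 ± 2.41 TPM in control cells, at 1.42 next to 1.73 (0.31, limma adjusted p = 0.288). Smad9 differed by -1.10 without methylmalonic acid (-0.14, limma adjusted p = 0.712), Id2 by -0.77 (-0.07, limma adjusted p = 0.843) and Nrn1 by -0.84 (-0.01, limma adjusted p = 0.967). A p above the threshold does not show that these effects are equal. In the BMP list 10 of 17 genes fell and 1 rose in FA against control, and Bambi alone passed the test of the difference, at -0.43 and not without any 1 of 10 of the 12 libraries. In the thin filament list 7 of 13 genes rose and 1 fell in FA against control, at a median of 0.27, and 1 passed the test of the difference.

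**Figure D4:**
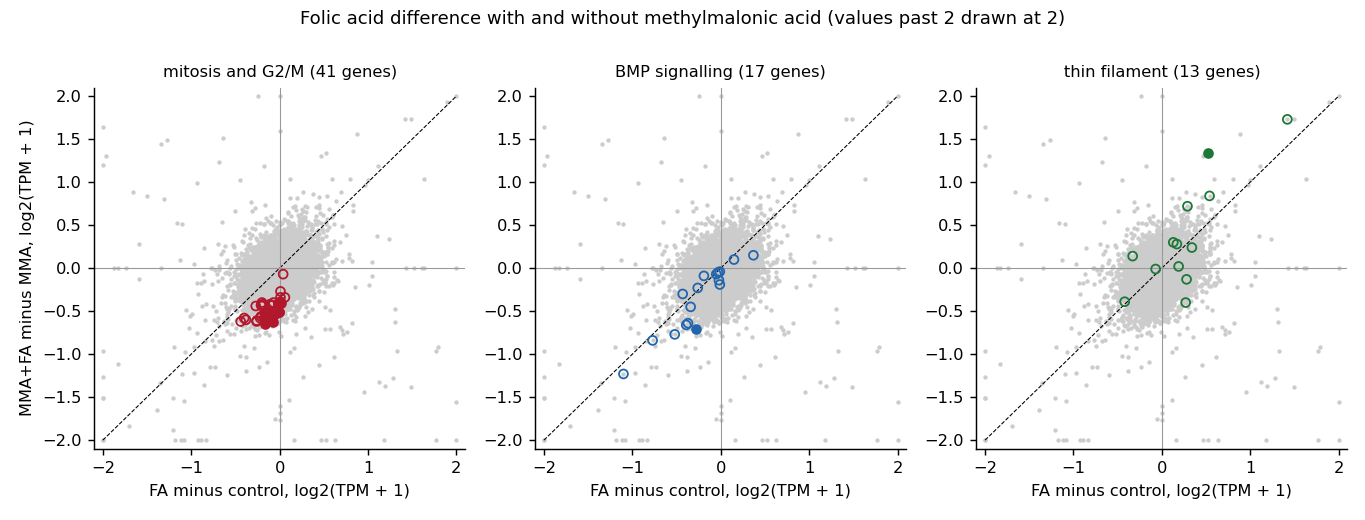
Difference in log2(TPM + 1) for FA minus control (horizontal) and MMA+FA minus MMA (vertical), with all 12263 tested genes in grey and the members of 3 lists in colour, filled where the test of the difference between the 2 passed. Mitosis and G2/M genes lie below the dashed line of equal difference, with 20 of 41 filled, and 1 of 17 BMP genes is filled.

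For 295 genes (2.41%) the folic acid difference itself differed with methylmalonic acid present, 115 in the positive direction (0.938%) and 180 in the negative (1.47%). After scaling the counts were 326 (2.66%), 127 (1.04%) and 199 (1.62%). Of the 41 mitosis and G2/M genes 20 were among the negative ones and none among the positive ones, at a median difference of differences of -0.38. In FA against control 6 of these 41 fell, where 8.70% of all genes fell. Dlgap5 averaged 53.2 ± 2.59 TPM in MMA+FA cells and 78.7 ± 1.83 TPM in MMA cells, next to 61.8 ± 2.19 TPM in FA cells and 65.0 ± 3.62 TPM in control cells (difference of differences -0.49, SE 0.0725, limma adjusted p = 0.0112). The count of 20 was between 6, without FA replicate 1, and 24, without MMA+FA replicate 3, when each of the 12 libraries was left out, and it was 12 or fewer without any 1 MMA or control library or MMA+FA replicate 1 or 2. The median stayed between -0.44 and -0.34 in all of these fits.

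Genes with opposite or unequal responses were found outside mitosis too. Palmd, a membrane-associated protein, had 13.3, 11.2 and 11.6 TPM in MMA+FA cells, against 17.5, 16.8 and 17.2 TPM in MMA cells, but 17.2 ± 1.00 TPM in FA cells and 11.3 ± 0.904 TPM in control cells. It fell by 0.49 with methylmalonic acid and rose by 0.57 without it (difference of differences -1.05, SE 0.105, limma adjusted p = 0.00332). Acta1 rose in both settings, by 1.34 and by 0.52 (0.82, limma adjusted p = 0.0205). Without control replicate 1 or control replicate 3 Acta1 did not pass. Trim63 rose by 0.72 with methylmalonic acid and stood at 0.17 without it (0.55, limma adjusted p = 0.0146). The proton pump gene Atp6v0b rose by 0.27 and fell by 0.36 (0.62, limma adjusted p = 0.00849). In the lysosome list 8 of 31 genes were in the positive direction and none in the negative, 7 after scaling. The count was 4 without any 1 of MMA replicates 2 and 3, FA replicate 1, MMA+FA replicates 1 and 2 and control replicates 1 and 3, and 4 to 10 when each of the 12 libraries was left out.

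The collagens were called differently in the 2 settings. In MMA+FA against MMA none of 17 rose and 2 fell, next to 6 that rose and none that fell in FA against control. Of all genes 4.19% rose and 9.53% fell in the first, and 3.67% and 8.70% in the second. All 17 differences of differences were below 0, but 2 passed, Col11a1 (-0.42) and Col5a2 (-0.27), and without any 1 of the 12 libraries except FA replicate 2 and MMA+FA replicate 1 none did.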

How the data were processed

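RNA was taken from H9c2 cells with TRIzol and made into stranded, poly(A)-selected Illumina libraries, per the labels' protocols. The submitters' processing notes name fastp, HISAT2 and the build mRatBN7.2 without versions. The authors deposited 1 table of TPM for all 12 libraries, whose title names RSEM. Neither the annotation nor the strand setting of the counting is stated. TPM keeps no read depth, so depth and counting error are unknown.

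From these values log2(TPM + 1) was computed for the 12263 of 30562 genes averaging 1 TPM or more, and limma 3.58.1 in R 4.3.3 was fitted to all 12 libraries with 1 mean per group (trend, moderated variances, 8 residual degrees of freedom), with Benjamini-Hochberg adjustment over all genes tested and a threshold of 0.05. The test of a difference between the folic acid effects was the interaction contrast of the same fit. Scripts were tested on simulated data. Named genes were the 15 largest differences in each direction among genes with a symbol, called under both scalings, at 5 TPM or more in the higher group and without overlap between groups, up to 5 called genes per list by p-value, fixed marker, folate and mitochondrial genes, and the 8 leading interaction genes. Further members of a list are named after their values were seen. A few of these genes are left out of the text, and every count still includes them. The gene lists and named members were chosen with earlier results of these data known. Promoters are RefSeq sequences of build GRCr8, used for letters and their own coordinates only. Figures and shares used Python 3.11.15. Alternatives were other scalings, pseudocounts, filters, a fit of the 6 libraries alone, array weights, a fold threshold, the replicate number as a block and leaving out each library.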

Additional observations from a re-analysis of the deposited data

Results flagged for a closer look

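For 33 named genes the folic acid difference with methylmalonic acid present differed from that without it in the interaction test of limma. Values are the difference of differences in log2(TPM + 1), and the brackets hold MMA+FA minus MMA, then FA minus control. The direction was opposite in Palmd at -1.05 (-0.49, 0.57), Sapcd1 at -0.83 (-0.38, 0.45), Cebpd at -0.57 (-0.33, 0.24), H1f0 at -0.54 (-0.32, 0.23), Mfsd11 at 0.53 (0.23, -0.31), Renbp at 0.57 (0.38, -0.18) and Atp6v0b at 0.62 (0.27, -0.36), and both differences passed their own test in each of them. The signs also differed in Ptgis at -0.53 (-0.29, 0.24), Ucp2 at -0.48 (-0.31, 0.18), Col5a2 at -0.27 (-0.18, 0.09), Fads1 at -0.26 (-0.16, 0.10), Tgfbi at -0.65 (-0.59, 0.06) and Ndufv3-ps1 at 0.97 (0.66, -0.31), where FA against control did not pass.

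Cell cycle genes fell further with methylmalonic acid. The values were -0.51 for Knstrn (-0.53, -0.02), -0.49 for Dlgap5 (-0.56, -0.07), -0.47 for Nusap1 (-0.65, -0.17), -0.45 for Rrm2 (-0.55, -0.10), -0.43 for Cdk1 (-0.56, -0.13), -0.40 for Rpa2 (-0.55, -0.15), -0.38 for Prc1 (-0.50, -0.12), -0.35 for Bub1b (-0.51, -0.16) and -0.29 for Rrm1 (-0.33, -0.03).

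The remaining genes moved further in the direction seen with methylmalonic acid. They were Cd200 at -0.65 (-1.03, -0.38), Bambi at -0.43 (-0.71, -0.28), Col11a1 at -0.42 (-0.45, -0.03), Pdlim5 at 0.27 (0.27, 0), Atp6v0d1 at 0.32 (0.35, 0.03), Vcl at 0.33 (0.47, 0.14), Ednra at 0.44 (0.69, 0.25), Trim63 at 0.55 (0.72, 0.17), AABR07007032.1 at 0.61 (0.81, 0.20) and Acta1 at 0.82 (1.34, 0.52). The call held without each of the 12 libraries for 17 of the 33 genes and was lost without at least 1 library for 16.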

How the results depend on the processing

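No named gene that passed, in the main comparison or in the interaction, changed sign under any alternative. More members fell than rose as deposited, and more rose than fell after median-ratio scaling, in 5 lists: matrix proteases and inhibitors (3 higher and 1 lower after scaling, against 1 and 2), propionate, cobalamin and branched-chain breakdown (2 and 1, against 0 and 3), nuclear respiratory chain (3 and 0, against 1 and 2), ATF4 response and tRNA synthetases (2 and 1, against 0 and 5) and ribosome biogenesis (2 and 1, against 1 and 2). Of the 171 named genes that passed, 106 passed under every alternative and 115 without each of the 6 libraries. The total of 1683 genes was 2917 with array weights, whose estimation did not converge, and 251 with a fold threshold of 0.5. It was 868 to 1948 without 1 library, and with median-ratio scaling it was 888 without MMA replicate 1, 876 without MMA replicate 2, 1071 without MMA+FA replicate 1 and 1121 without MMA+FA replicate 3. The 514 higher genes became 784 after median-ratio scaling, 812 with that scaling and without MMA replicate 3, 886 with array weights, 67 with the fold threshold and 262 to 608 without 1 library. The 1169 lower genes became 759 after median-ratio scaling, 746 after quantile normalization, 2031 with array weights, 184 with the fold threshold and 581 to 1340 without 1 library. With median-ratio scaling they were 456, 462 and 727 without MMA replicates 1, 2 and 3 and 546, 589 and 581 without MMA+FA replicates 1, 2 and 3. The 295 interaction genes became 181 with no filter on low values, 1810 with array weights, 91 with the fold threshold and 85 to 496 without 1 library. With median-ratio scaling they were 170, 157 and 144 without MMA replicates 1, 2 and 3 and 175 and 136 without MMA+FA replicates 1 and 2. The cause of these shifts was not tested. The share of mitochondrial TPM differed by -0.367 to 0.183 percentage points, above 0 without MMA+FA replicate 1 (0.133) or MMA replicate 2 (0.183), and that of the top 100 genes by 0.667 to 1.12 without 1 library.

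Same-numbered MMA+FA and MMA libraries correlated at 0.07, 0.02 and 0 in their deviations from the group means. Whether the numbers pair the samples is not stated, and so few values cannot decide it. With the replicate number as a block 1515 genes passed, 1404 with median-ratio scaling as well, of which 692 were lower, and 4 of the 6 libraries correlated best with their own number. TPM gives no depth, so the precision of low genes cannot be stated.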
